A study of Mus musculus with 20 samples.

Results

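The immediate early factors described here were 10 transcription factor genes that T cells switch on soon after the T cell receptor (TCR) is engaged: the nuclear receptor genes Nr4a1, Nr4a2 and Nr4a3, the zinc finger genes Egr1, Egr2 and Egr3, and the AP-1 genes Fos, Fosb, Jun and Junb. They were selected by gene symbol. All 10 had a row in both count tables, among 16784 genes in the table for mesenteric lymph nodes (mLN) and 16740 genes in the table for spleen with peripheral lymph nodes (pLN).

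RNA-seq was performed on CD4+ T cells sorted from C57BL/6 mice at 14 weeks of age. Treg cells were sorted as CD4+YFP+ and CD4+Foxp3- cells as CD4+YFP-. WT mice carried Foxp3Cre, a YFP-Cre fusion knocked into the Foxp3 gene, and DKO mice carried Foxp3Cre together with floxed alleles of both Tet2 and Tet3 (Tet2/3 fl/fl), so Cre was present in both genotypes. The mLN table held 3 libraries for each of the 4 groups, 12 in all, and the spleen and pLN table held 2 for each, 8 in all. Cre acts in cells that express Foxp3 or once did, so the Foxp3- cells of DKO mice comprised cells without the deletion and former Treg cells that had lost Foxp3. The authors report that DKO mice developed inflammatory disease, with activated Treg and Foxp3- cells. Loss of Tet2 and Tet3 and the diseased state of the mice therefore cannot be told apart in the genotype comparisons. The pair of spleen DKO mice were littermates that differed in how far their spleens were enlarged, and the labels do not say which replicate number belonged to which mouse. Nothing in the labels states which libraries came from one mouse, and p-values measure the spread between these libraries.

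TCR engagement activates the Ras-MAPK cascade and calcium signaling through calcineurin. MAPK signaling acts on serum response factor (SRF) and its partners at CArG boxes, which drive Fos and the Egr genes, and calcium contributes to induction of the Nr4a and Egr genes. Fos and Jun family proteins pair to form AP-1, which binds beside NFAT at many activation genes. NR4A receptors and EGR2 and EGR3 are linked to restrained T cell responses and, for the NR4A receptors, to Treg cell development and maintenance. TET2 and TET3 oxidize 5-methylcytosine in DNA.

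Counted reads ranged from 9998478 to 15449158 per mLN library and from 13525932 to 15253141 per spleen and pLN library, and the 10 members took 0.137% to 0.305% and 0.0604% to 0.16% of them. Levels are given in CPM (counts scaled to a common library size) after TMM scaling, and 3 counts corresponded to at most 0.299 CPM. Foxp3 lay at 152 to 419 CPM in Treg libraries and at no more than 2.75 CPM in Foxp3- libraries. The counts sum all exons of a gene and so do not check a deletion of part of it: Tet2 and Tet3 together lay at 79.4 to 96.9 CPM in WT against 56.1 to 86.1 CPM in DKO mLN Treg cells, and at 31.7 to 33.0 and 40.1 to 69.0 CPM in spleen and pLN. Myeloid markers summed to 2.85 to 4.77 CPM in WT against 14.8 to 54.5 CPM in DKO mLN Treg cells. In spleen and pLN Treg cells they summed to 2.92 to 4.8 and 12.6 to 36.5 CPM. Of those tested, 6 of 8 in mLN and 10 of 10 in spleen and pLN had a higher estimate in DKO Treg cells. The test described below was passed by 4 and 2 of them, all higher in DKO. Markers of CD8 and NK cells summed to 25.6 to 31.6 CPM in WT against 77.8 to 166 CPM in DKO mLN Treg cells and to 26.0 to 29.7 and 101 to 131 CPM in spleen and pLN; of the 5 markers the NK receptor gene Klrb1c rose and Cd8b1 fell in mLN, Klrb1c and Ncr1 rose in spleen and pLN, and Cd8a had at most 7 counts. The part of these markers in the results below was not tested. In bulk samples fewer cells of a type and less RNA per cell cannot be told apart.

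Some libraries stood apart. In mLN the 4 libraries with number 3 had the lowest Fos and the lowest Fosb of their groups, in both genotypes and both cell types. In spleen and pLN the DKO libraries with number 1 stood apart from those with number 2 in both cell types, with correlations of log2 CPM of 0.956 between the DKO Treg libraries and 0.934 between the DKO Foxp3- libraries, against 0.996 and 0.994 between the WT pairs. In mLN the DKO Foxp3- library with number 2 correlated least with its group, at 0.918 with number 1 and 0.947 with number 3.

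Promoter sequence of 8 of the 10 members was found in a RefSeq table on GRCm38.p6, which holds 250 bases before and 50 after each start; Egr1 and Egr3 had no entry. The stretches below are shown because their capitals mark the letters of an SRF site (CArG box, 2 C, 6 A or T, 2 G) or of an EGR site (GCGNGGGCG) near the start, the kinds of site through which SRF and the EGR proteins act. Each is written along the gene's strand.
Egr2 at chr10:67537484-67537513 on the plus strand: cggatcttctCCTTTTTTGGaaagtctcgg
Egr2 at chr10:67537787-67537816 on the plus strand: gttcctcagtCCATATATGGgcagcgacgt
Nr4a1 at chr15:101266776-101266804 on the plus strand: gcgtcagtggCGCCCCCGCccctctccat
Nr4a2 at chr2:57124059-57124087 on the minus strand: cgcggggtgcGCGCGGGCGgcgacaatga
Fosb at chr7:19310077-19310105 on the minus strand: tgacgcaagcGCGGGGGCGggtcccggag

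A CArG box on either strand was found in 1 member, Egr2, which has 5 annotated starts, and in 1.81% of the 27025 genes of the table. GCGNGGGCG was found in 3 members, Nr4a1, Nr4a2 and Fosb, and in 6.27% of genes; the Nr4a1 match lay on the opposite strand, and the matches began 60, 74 and 50 bases before the start. No member window held TGACGTCA, the full CREB site (2.03% of genes), TGANTCA, the AP-1 site (8.97%), or AAAGGTCA, the NR4A monomer site (1.7%). The searched motifs do not contain one another, and a match or its absence describes only the letters of these windows.

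The gene bodies, on NCBIM37 (mm9) as annotated by GENCODE M1, lay at chr15:101097277-101105223 for Nr4a1, chr2:56959241-56976414 for Nr4a2 and chr4:48058025-48099319 for Nr4a3, at chr10:66998223-67004936 for Egr2 and chr14:70477252-70479964 for Egr3, and at chr12:86814840-86818223 for Fos, chr7:19888070-19895394 for Fosb, chr4:94715725-94718913 for Jun and chr8:87500811-87502617 for Junb.

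Per length and by group mean, Junb was the most abundant member in all 8 groups and Nr4a2 the least abundant. Libraries of Junb and Fos overlapped in every mLN group, and those of Nr4a2 and Fosb in both DKO groups of spleen and pLN. In WT mLN Treg cells the deposited TPM averaged 614 ± 104 (SD, n = 3) for Junb and 579 ± 229 for Fos, whose libraries overlapped. Jun followed at 118 ± 38.7 TPM and overlapped Egr1 at 101 ± 9.42 TPM. Nr4a1 lay at 75.8 ± 5.79 TPM, Fosb at 52.3 ± 22.6, Egr2 at 36.9 ± 4.04, Egr3 at 27.3 ± 3.46, Nr4a3 at 16.2 ± 0.597 and Nr4a2 at 2.12 ± 0.517, and of these neighbours Fosb and Egr2 overlapped. In WT spleen and pLN Treg cells Junb stood alone at 263 ± 9.55 TPM (n = 2), followed by Nr4a1 at 63.2 ± 3.61 and Fos at 49.0 ± 5.61, and Fos, Egr1, Egr2 and Egr3 each overlapped the next in that order. The tables used other lengths for some genes: TPM per CPM was 1.24 times as high in mLN as in spleen and pLN for Nr4a1 but 0.418 times for Nr4a3 and 0.442 times for Egr3, so levels of different genes are compared within a table only.

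**Figure D1:**
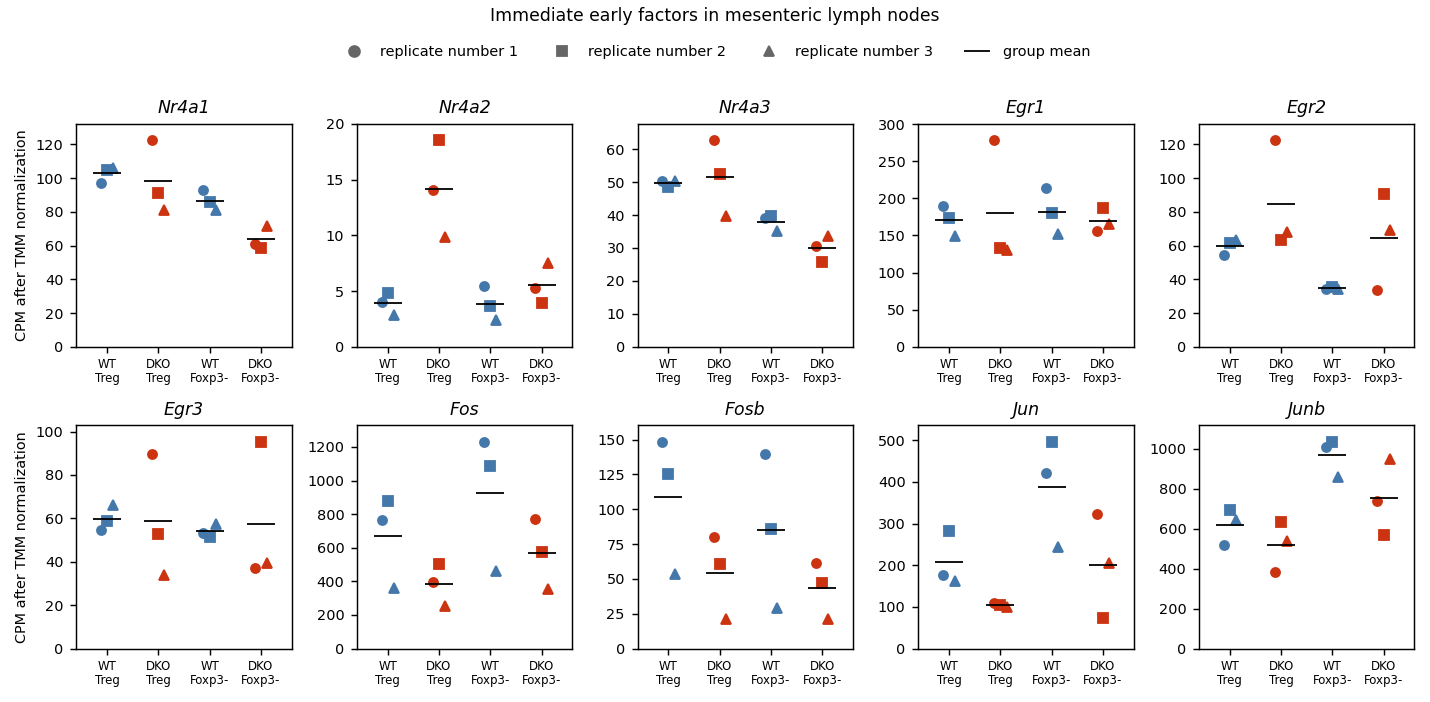
CPM after TMM scaling of the 10 members in each mLN library (vertical axes from 0), for WT (blue) and DKO (red) Treg and Foxp3- cells; symbols give the replicate number and bars the group mean. The 3 DKO Treg libraries lie at 9.82 to 18.5 CPM for Nr4a2, all above the other 9 libraries, and number 3 (triangles) is lowest for Fos and Fosb in each group.

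To ask whether these factors differed between the genotypes in Treg cells, DKO and WT mLN Treg cells were compared. Nr4a2 rose, and it was the only 1 of 10 members that passed the test, which required a change of 1.5-fold or more in either direction and an adjusted p no higher than 0.05, against 11.9% of all 16784 genes tested. The members' median log2 fold change was -0.045, and that of all genes was 0.0045. Of the 9 other members, 3 had a higher estimate in DKO cells and 6 a lower one.

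Nr4a2, which encodes the nuclear receptor NURR1, measured 4.03, 4.8 and 2.85 CPM in WT Treg libraries (49, 58 and 29 counts) and at 14.1, 18.5 and 9.82 CPM in the DKO Treg libraries (184, 258 and 117 counts). The genotypes did not overlap, and each DKO library was above the highest WT library of either cell type. The increase was 3.62-fold (log2 fold change 1.85 ± 0.34 SE, adjusted p = 0.00244), and its adjusted p stayed between 9.09e-06 and 0.0225 in the 15 alternative fits. It was still the least abundant Nr4a gene in these cells.

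Neither of the other Nr4a genes passed. Nr4a1, encoding NUR77 and widely used as a reporter of TCR signal strength, was at 97.3, 105 and 106 CPM in WT against 122, 91.2 and 81 CPM in DKO Treg cells. Nr4a3 (NOR1) was at 50.2, 48.5 and 50.5 CPM in WT against 62.7, 52.5 and 39.7 CPM in DKO Treg cells. For both genes the DKO libraries spread around the WT values, the library with number 1 above and the library with number 3 below.

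By TPM, Nr4a2 accordingly made up 2.43%, 2.74% and 1.62% of the summed Nr4a level in WT Treg cells and 6.48%, 10.7% and 6.86% in DKO Treg cells. The share was also higher in the Foxp3- cells of DKO mice, at 4.93%, 3.99% and 6.03% against 3.53%, 2.54% and 1.8% in WT. In both cell types every DKO library lay above every WT library for this share. In the Foxp3- cells, however, the CPM of Nr4a2 itself overlapped between genotypes, while Nr4a1 and Nr4a3 lay lower in every DKO library than in every WT library.

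**Figure D2:**
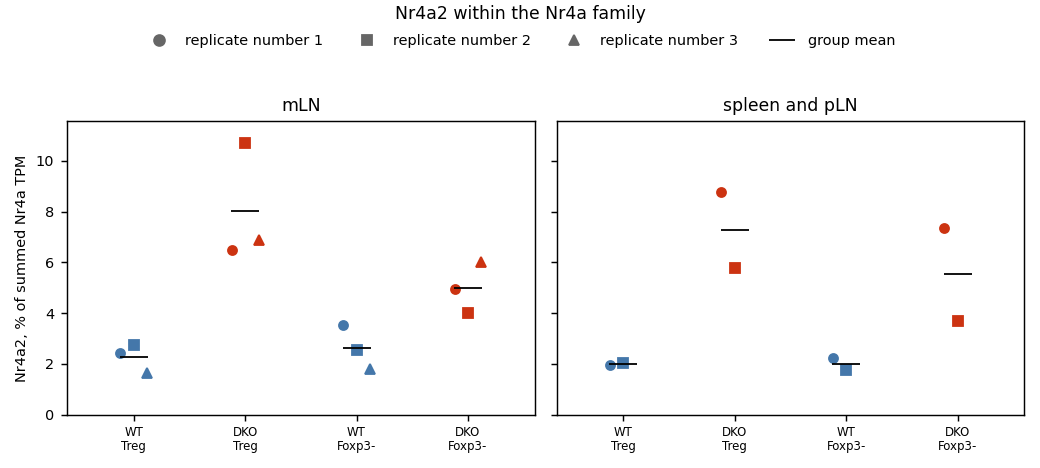
Share of Nr4a2 in the summed TPM of Nr4a1, Nr4a2 and Nr4a3 (percent, vertical axis from 0) in each library of both tables; symbols give the replicate number and bars the group mean. In mLN the DKO libraries lie at 3.99% to 10.7% and the WT libraries at 1.62% to 3.53%. In spleen and pLN they lie at 3.67% to 8.78% and 1.74% to 2.24%, and shares are compared within a table only.

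Egr genes showed no common shift in mLN Treg cells. Egr1 was at 190, 174 and 149 CPM in WT against 278, 133 and 130 CPM in DKO cells. Egr2 was at 54.5, 61.6 and 63.5 CPM in WT against 122, 63.2 and 68 CPM in DKO cells, a log2 fold change of 0.50 ± 0.29 (adjusted p = 0.264). Egr3 was at 54.6, 59 and 66.1 CPM in WT against 89.6, 52.8 and 33.9 CPM in DKO cells. In each case the DKO library with number 1 was far above the other DKO libraries, and the genotypes overlapped for each of the 3 genes.

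The 4 AP-1 genes had lower estimates in DKO Treg cells, and none passed. Jun was at 176, 283 and 161 CPM in WT against 109, 104 and 99.9 CPM in DKO Treg cells, and the genotypes did not overlap, with 19.2% of all genes lying below in this way and 21.3% above. Its log2 fold change was -0.99 ± 0.40 and missed the threshold (adjusted p = 0.107), though it passed when the Treg groups were fitted alone (adjusted p = 0.00283). Fos was at 764, 876 and 363 CPM in WT against 396, 502 and 255 CPM in DKO cells (log2 fold change -0.80 ± 0.40, adjusted p = 0.187).

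Fosb was at 148, 125 and 53.5 CPM in WT against 80.2, 60.9 and 20.9 CPM in DKO Treg cells (log2 fold change -1.01 ± 0.57, adjusted p = 0.244). For Fos and Fosb the genotypes overlapped. With the libraries of number 3 left out, Fos passed (log2 fold change -0.87, adjusted p = 0.0362) and Fosb did not (-0.96, adjusted p = 0.0688). Junb was at 518, 694 and 641 CPM in WT against 385, 634 and 538 CPM in DKO cells, with overlapping groups (log2 fold change -0.25 ± 0.19, adjusted p = 0.408).

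**Figure D3:**
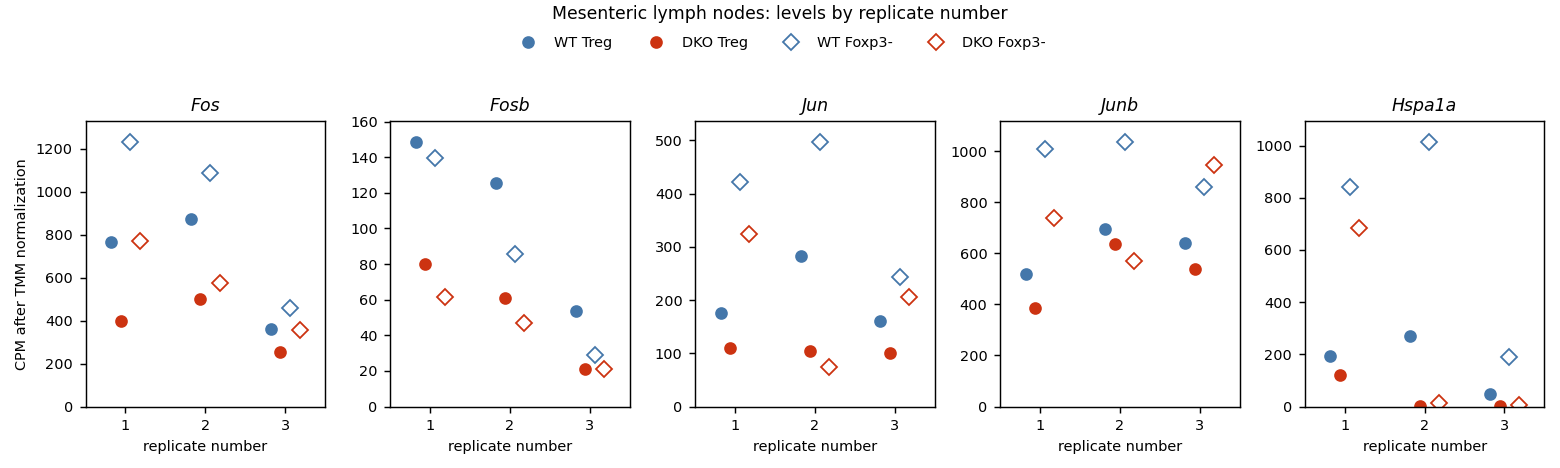
CPM of Fos, Fosb, Jun, Junb and the heat shock gene Hspa1a in the 12 mLN libraries by replicate number (horizontal axis), WT in blue and DKO in red, Treg cells as filled circles and Foxp3- cells as open diamonds; vertical axes start at 0. Fos and Fosb are lowest at number 3 in every group, and Hspa1a ranges from 0.839 to 1012 CPM.

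Hspa1a, an inducible heat shock protein 70 gene with a near-identical neighbour, Hspa1b, that can share its reads, also varied by library. In Treg cells it was at 194, 269 and 47.3 CPM in WT against 120, 3.88 and 0.839 CPM in DKO libraries. In Foxp3- cells it was at 842, 1012 and 190.5 CPM in WT against 683, 13.7 and 4.86 CPM in DKO libraries. It was thus lowest at number 3 in each group, as Fos and Fosb were, and far lower in the DKO libraries with numbers 2 and 3 than in any WT library. It did not pass the test between genotypes in either cell type. The 11 heat shock genes listed had median log2 fold changes of 0.076 in Treg and -0.118 in Foxp3- cells. The part of Hspa1a in the Fos, Fosb and Jun values was not tested.

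In mLN Foxp3- cells 0 of 10 members passed the edgeR test between DKO and WT, against 3.43% of all genes. Among the members, 4 had an unadjusted p under 0.05 (Nr4a1, Nr4a3, Egr2 and Jun), against 18.7% of all genes, and the DESeq2 Wald test called 1, Egr2, against 5.54%. The members' median log2 fold change was -0.35 and that of all genes was 0.

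Nr4a1 was at 92.9, 86 and 80.9 CPM in WT against 61.1, 58.8 and 71.8 CPM in DKO Foxp3- cells (log2 fold change -0.44 ± 0.13, adjusted p = 0.0886). Nr4a3 was at 39.1, 39.8 and 35.1 CPM in WT against 30.7, 25.6 and 33.6 CPM in DKO cells (log2 fold change -0.35 ± 0.15, adjusted p = 0.219). For both genes every DKO library lay below every WT library, as for 9.74% of all genes, and both estimates were under the 1.5-fold minimum. Nr4a2, at 5.45, 3.65 and 2.39 CPM in WT against 5.23, 3.94 and 7.51 CPM in DKO cells, overlapped (log2 fold change 0.53 ± 0.34, adjusted p = 0.449).

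Egr2 held at 34, 35.4 and 34.5 CPM in WT Foxp3- cells and spread to 33.9, 90.8 and 69.2 CPM in DKO cells. The DKO library with number 1 matched the WT level and the other DKO libraries were over it (log2 fold change 0.90 ± 0.30, adjusted p = 0.12). Without that library the difference passed (log2 fold change 1.21, adjusted p = 0.00361), and without the DKO library with number 2 it was 0.58 (adjusted p = 0.411). The Treg markers summed to 177, 348 and 249 CPM in these DKO libraries, against 133 to 137 CPM in WT, with 2 of 5 higher in the test. The CD8 and NK markers summed to 63.2, 146 and 92.0 CPM, against 54.7 to 65.1 CPM in WT. Of these 5, 2 had a higher estimate and 3 a lower one (median log2 fold change -0.862), and 1 passed in each direction. The sums of both sets followed the order of Egr2. So did those of myeloid markers (8.87, 27.6 and 12.4 CPM) and of B cell markers (8.78, 20.5 and 20.3 CPM). In WT these lay at 7.76 to 9.78 and 5.29 to 6.68 CPM. The part of all these markers in the Egr2 values was not tested. Egr3 was at 53, 51.3 and 57.5 CPM in WT against 37.2, 95.2 and 39.6 CPM in DKO cells, and Egr1 at 214, 180.0 and 152 CPM in WT against 156, 188 and 166 CPM in DKO cells, with no common direction for either gene.

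Fos was at 1230, 1089 and 460 CPM in WT against 772, 578 and 355 CPM in DKO Foxp3- cells (log2 fold change -0.70 ± 0.40, adjusted p = 0.374). Fosb was at 139.8, 85.9 and 29 CPM in WT against 61.7, 46.9 and 20.9 CPM in DKO cells (log2 fold change -0.98 ± 0.58, adjusted p = 0.399). Without number 3 neither passed (log2 fold changes -0.78 and -1.06, adjusted p = 0.212 and 0.22). Jun was at 422, 496 and 243 CPM in WT against 324, 74.4 and 206 CPM in DKO cells (log2 fold change -0.94 ± 0.40, adjusted p = 0.221), and without the DKO library with number 1 it passed (log2 fold change -1.47, adjusted p = 0.0235), while without number 2 the value was -0.54 (adjusted p = 0.469). Junb was at 1009, 1034 and 859 CPM in WT against 740, 571 and 947 CPM in DKO cells (log2 fold change -0.36 ± 0.19, adjusted p = 0.341).

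**Figure D4:**
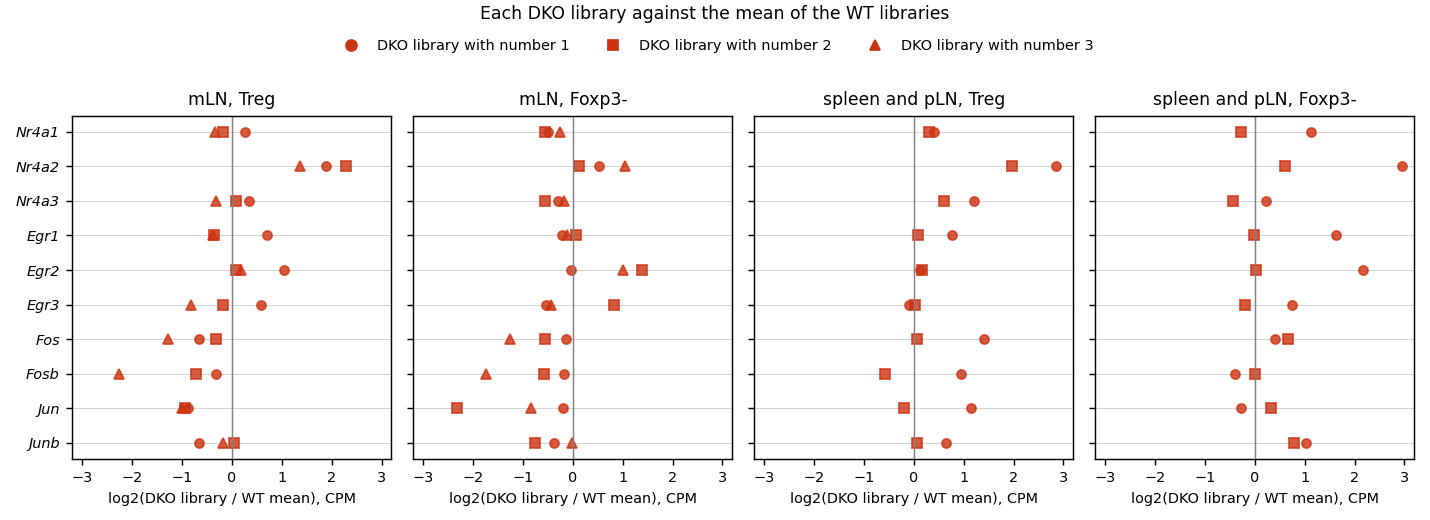
Log2 ratio of each DKO library's CPM to the mean log2 CPM of the WT libraries of the same cell type and table (horizontal axis; 0 is the WT mean), with the members as rows and the replicate number as symbol. Nr4a2 lies above 0 in each of the 10 DKO libraries, and in mLN Fos, Fosb and Jun lie below 0 in all 6 DKO libraries.

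Treg and Foxp3- cells of one genotype were compared next. In WT mLN 1 of 10 members passed, Junb, against 10.1% of all genes. Junb, a partner in AP-1 that also supports Treg cell function, was at 518 to 694 CPM in WT Treg cells and 859 to 1034 CPM in WT Foxp3- cells and did not overlap (1.57-fold lower in Treg cells, log2 fold change -0.65 ± 0.19, adjusted p = 0.0389). Leaving out any 1 of the 6 libraries took its adjusted p to between 0.0585 and 0.156, and leaving out all libraries of number 3 or all of number 1 took it to 0.158 and 0.175.

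In the same comparison Jun had a log2 fold change of -0.90 ± 0.40 (adjusted p = 0.162), with 161 to 283 CPM in Treg and 243 to 496 CPM in Foxp3- cells. Egr2, at 54.5 to 63.5 CPM in Treg and 34 to 35.4 CPM in Foxp3- cells, did not overlap but missed the threshold (log2 fold change 0.79 ± 0.30, adjusted p = 0.101). The same held for Nr4a3 (0.39 ± 0.14, adjusted p = 0.0952) and for Nr4a1 (0.25 ± 0.13, adjusted p = 0.259). For these 3 genes every WT Treg library lay above every WT Foxp3- library, as for 22.3% of all genes.

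In DKO mLN 3 of 10 members passed, all 3 Nr4a genes, and all were higher in Treg cells, against 11.2% of all genes called. Nr4a1 was 1.54-fold higher (log2 fold change 0.62 ± 0.13, adjusted p = 0.00575), with 81 to 122 CPM in Treg and 58.8 to 71.8 CPM in Foxp3- cells. Nr4a2 was 2.55-fold higher (1.35 ± 0.33, adjusted p = 0.0116), with 9.82 to 18.5 and 3.94 to 7.51 CPM. Nr4a3 was 1.73-fold higher (0.79 ± 0.15, adjusted p = 0.00233), with 39.7 to 62.7 and 25.6 to 33.6 CPM.

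None of the 3 Nr4a genes overlapped between the DKO cell types, and 15.1% of all genes lay above in this way. Nr4a1 fell under the fold minimum without DKO Treg number 1, Foxp3- number 1 or Foxp3- number 2 (log2 fold change 0.43 to 0.57), and Nr4a2 lost its call without DKO Treg number 2 (adjusted p = 0.0539). With the 4 libraries of number 1 left out, 0 of the 3 passed (adjusted p = 0.0525 for Nr4a3, 0.0864 for Nr4a2 and 0.092 for Nr4a1), and with the DKO groups fitted alone 0 passed either (0.0534, 0.0541 and 0.0817). Jun and Junb were again lower in Treg cells without passing (log2 fold changes -0.94 ± 0.40 and -0.54 ± 0.19, adjusted p = 0.13 and 0.0762). Both passed without DKO Foxp3- number 2 (-1.38 and -0.73, adjusted p = 0.00112 and 0.00475), Junb also without DKO Treg number 2 (-0.70, adjusted p = 0.039), and without DKO Foxp3- number 1 Jun was at -0.45 (adjusted p = 0.478).

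The difference between the genotype effects in Treg and Foxp3- cells was tested as an interaction, which 0 of 10 members passed in mLN by edgeR, against 0.280% of all genes, and 0 by DESeq2, against 2.44%. Nr4a2 alone had an unadjusted p under 0.05, against 10.9% of all genes (log2 difference 1.33 ± 0.48, adjusted p = 0.3). For Nr4a1 the difference was 0.37 ± 0.19 (adjusted p = 0.499) and for Nr4a3 0.40 ± 0.20 (adjusted p = 0.513). The rise of Nr4a2 in Treg cells was therefore not shown to differ from the change in Foxp3- cells.

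**Figure D5:**
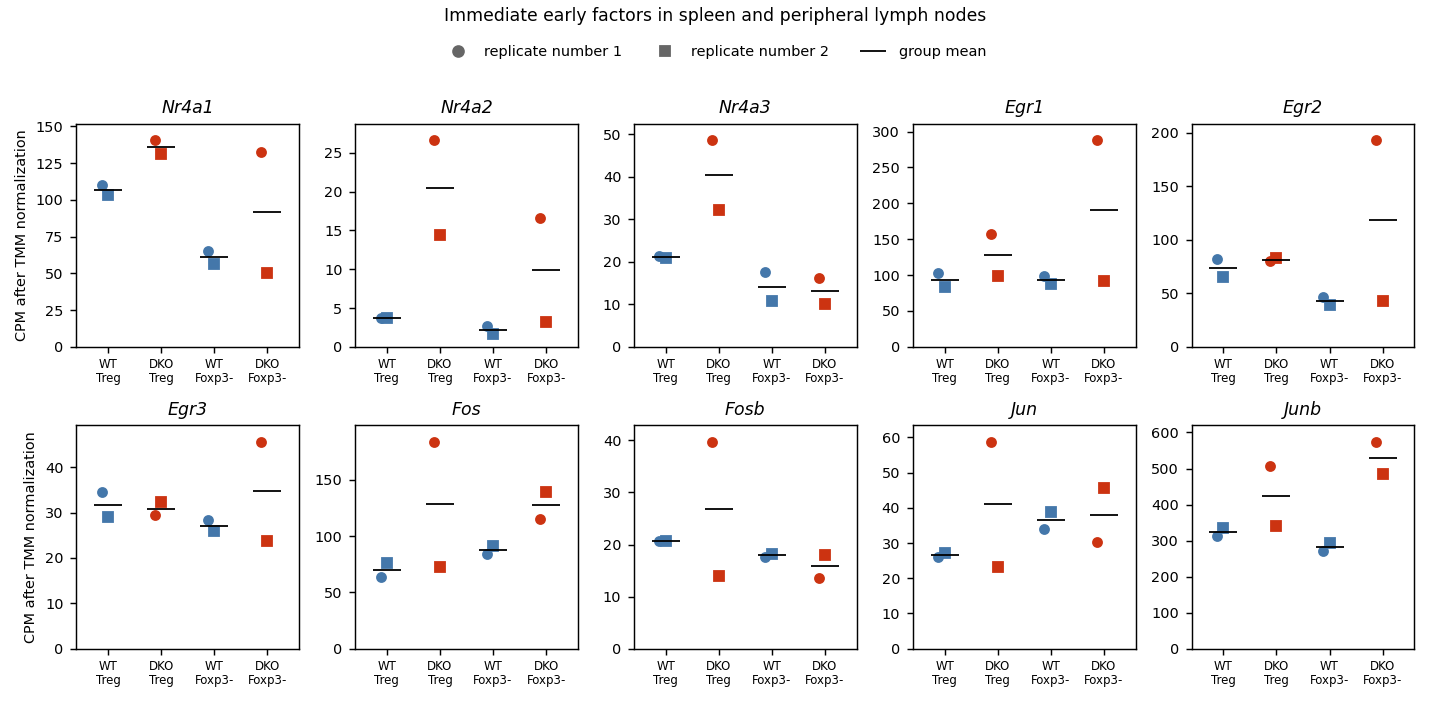
CPM after TMM scaling of the 10 members in each library of spleen and pLN (vertical axes from 0), for WT (blue) and DKO (red) Treg and Foxp3- cells; symbols give the replicate number and bars the group mean. The DKO libraries with number 1 reach 193 CPM for Egr2 in Foxp3- cells and 184 CPM for Fos in Treg cells, each far from number 2.

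In spleen and pLN, with 2 libraries per group, 0 of 10 members passed the edgeR test between DKO and WT Treg cells, against 1.74% of 16357 genes tested. Of the members, 3 had an unadjusted p under 0.05 (Nr4a2, Nr4a3 and Fos), against 20.4% of all genes, and the DESeq2 Wald test called 1, Nr4a2, against 3.96%. The median log2 fold change was 0.42 over the members and 0.018 over all genes.

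Nr4a2 again showed the widest gap. It was at 3.69 and 3.69 CPM in WT Treg cells (48 and 53 counts) and at 26.6 and 14.4 CPM in DKO Treg cells (465 and 211 counts), a log2 fold change of 2.47 ± 0.58 (adjusted p = 0.0557). The same comparison passed by DESeq2 (adjusted p = 0.00946). It also passed with both DKO libraries of number 1 left out (log2 fold change 1.97, adjusted p = 4.15e-09), where the lone DKO library is assumed to vary as little as the WT pairs. Without DKO Treg number 1 alone it did not (1.96, adjusted p = 0.551). Its share of the summed Nr4a TPM was 1.94% and 2.04% in WT and 8.78% and 5.79% in DKO Treg cells.

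Nr4a3 was at 21.3 and 20.9 CPM in WT against 48.6 and 32.3 CPM in DKO Treg cells (log2 fold change 0.94 ± 0.28, adjusted p = 0.0971). Nr4a1 was at 110 and 104 CPM in WT against 141 and 131 CPM in DKO cells. All DKO libraries lay above all WT libraries for Nr4a1, Nr4a2, Nr4a3 and Junb, and the remaining 6 members overlapped; 28.1% of all genes lay above in this way and 26.1% below. Without both number 1 libraries of DKO mice, Nr4a3 passed as well (log2 fold change 0.61, adjusted p = 0.00313).

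The AP-1 genes of spleen and pLN Treg cells were set by 1 library, the DKO library with number 1. In it the myeloid markers summed to 36.5 CPM, against 12.6 CPM in DKO number 2 and 2.92 to 4.8 CPM in WT. Its B cell markers summed to 57.0 CPM, against 20.6 CPM in DKO number 2 and 33.5 to 37.3 CPM in WT. The part of these markers in the values below was not tested. Fos was at 63.7 and 76.4 CPM in WT against 184 and 72.8 CPM in DKO Treg cells (log2 fold change 0.87 ± 0.31, adjusted p = 0.145), and without the DKO library with number 1 the value was 0.053. Jun was at 26.1 and 27.1 CPM in WT against 58.7 and 23.2 CPM in DKO cells (0.63 ± 0.33, adjusted p = 0.316), and without that library it turned to -0.20. Junb was at 313 and 335 CPM in WT against 506 and 339 CPM in DKO cells (0.38 ± 0.20, adjusted p = 0.308), with 0.063 left without that library. Without the DKO library with number 2 instead, which leaves a single DKO Treg library whose spread is taken from the other groups, Nr4a2, Fos, Fosb, Jun and Junb passed, against 10.4% of all genes in that fit.

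Fosb, an AP-1 partner like Fos, was at 20.8 and 20.7 CPM in WT against 39.7 and 13.9 CPM in DKO Treg cells and straddled the WT level. Hspa1a was at 25.6 and 18.2 CPM in WT against 3.15 and 3.48 CPM in DKO Treg cells, and its relation to the Fos values was not tested. Egr1 was at 103 and 83.5 CPM in WT against 158 and 98.8 CPM in DKO cells. Egr2 (82.5 and 65.6 CPM in WT, 80.0 and 82.6 CPM in DKO) and Egr3 (34.4 and 29 CPM, 29.4 and 32.2 CPM) overlapped.

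Among Foxp3- cells of spleen and pLN 0 of 10 members passed the edgeR test between DKO and WT, against 0.819% of all genes. Of the members, 4 had an unadjusted p under 0.05 (Nr4a2, Egr1, Egr2 and Junb), against 12.9% of all genes, and DESeq2 called 2, Nr4a2 and Junb, against 2.3%. The median log2 fold change was 0.57 over the members and 0 over all genes.

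Here too the DKO library with number 1 stood far from number 2. Egr2 was at 46.7 and 39 CPM in WT against 193 and 43.2 CPM in DKO Foxp3- cells (log2 fold change 1.46 ± 0.46, adjusted p = 0.17), and without number 1 it was 0.0080. Egr1 was at 98.5 and 87.9 CPM in WT against 288 and 92.2 CPM in DKO cells (1.03 ± 0.39, adjusted p = 0.274), and without number 1 it was -0.020. Nr4a1 was at 65.2 and 56.5 CPM in WT against 133 and 50.1 CPM in DKO cells (0.59 ± 0.32, adjusted p = 0.483), and it was -0.28 without number 1.

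Nr4a2 was at 2.73 and 1.69 CPM in WT against 16.6 and 3.26 CPM in DKO Foxp3- cells (2.17 ± 0.60, adjusted p = 0.12; 0.55 without number 1). Nr4a3 was at 16.1 and 10.1 CPM in DKO cells, near 17.6 and 10.8 CPM in WT, and Egr3 was at 28.3 and 26 CPM in WT against 45.6 and 23.7 CPM in DKO cells. Without the DKO library with number 2, with a single DKO Foxp3- library left, Nr4a1, Nr4a2, Egr1, Egr2, Egr3 and Junb passed, against 16.9% of all genes in that fit. In the library with number 1 the Treg markers, which include genes of activated T cells, summed to 707 CPM, against 226 CPM in number 2 and 199 to 220 CPM in WT, while Foxp3 itself was at 0.251 CPM. Their part in the Egr values was not tested.

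Junb was high in both DKO Foxp3- libraries of spleen and pLN. It was at 270 and 293 CPM in WT against 574 and 484 CPM in DKO cells (log2 fold change 0.91 ± 0.20, adjusted p = 0.0652; 0.00264 by DESeq2; 0.78, adjusted p = 0.164, without number 1). Fos was at 83.8 and 90.8 CPM in WT against 116 and 139 CPM in DKO cells, also without overlap, and 20.8% of all genes lay above in this way. Myeloid markers summed to 9.8 to 10.7 CPM in WT and 28.3 to 35.8 CPM in DKO Foxp3- libraries, and CD8 and NK markers to 90.8 to 144 and 138 to 225 CPM, and their part in these values was not tested. Fosb (17.6 and 18.2 CPM in WT, 13.6 and 18 CPM in DKO) and Jun (34.1 and 38.8 CPM in WT, 30.2 and 45.7 CPM in DKO) overlapped.

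Between WT Treg and Foxp3- cells of spleen and pLN 0 of 10 members passed by edgeR, against 4.0% of all genes, and 1 had an unadjusted p under 0.05, Nr4a1, against 13.7% of all genes. DESeq2 called 0, against 4.82%. Nr4a1 was at 104 to 110 CPM in Treg and 56.5 to 65.2 CPM in Foxp3- cells (log2 fold change 0.81 ± 0.32, adjusted p = 0.255). Egr2 was at 65.6 to 82.5 CPM in Treg and 39 to 46.7 CPM in Foxp3- cells (0.79 ± 0.46, adjusted p = 0.534). Nr4a2 (0.73 ± 0.62, adjusted p = 0.749) and Nr4a3 (0.57 ± 0.29, adjusted p = 0.422) had higher values in every Treg library too. So did Egr3, Fosb and Junb, which makes 7 members wholly above, against 28.1% of all genes, while Fos and Jun were wholly below, against 27.2%. Junb, at 313 and 335 CPM in Treg against 270.4 and 293 CPM in Foxp3- cells (0.20 ± 0.20, adjusted p = 0.811), had an estimate of the opposite sign to that in mLN (-0.65), a difference between tissues that was not tested. With both DKO libraries of number 1 out of the fit Nr4a1, Nr4a2 and Egr2 passed, against 13.1% of all genes.

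Between DKO Treg and Foxp3- cells 1 of 10 members passed, Nr4a3, against 3.77% of all genes. It was 3.08-fold higher in Treg cells (log2 fold change 1.62 ± 0.29, adjusted p = 0.00702), with 48.6 and 32.3 CPM against 16.1 and 10.1 CPM, and lost its call without DKO Treg number 1 (adjusted p = 0.146) and with genes of low counts removed by filterByExpr (adjusted p = 0.0518). Nr4a1 (0.57 ± 0.32, adjusted p = 0.477) and Nr4a2 (1.04 ± 0.54, adjusted p = 0.436) did not pass. Without DKO Foxp3- number 1, with a single DKO Foxp3- library left, Nr4a1, Nr4a2, Nr4a3 and Egr2 passed, against 9.85% of all genes in that fit.

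The interaction of genotype and cell type was passed by 0 of 10 members in spleen and pLN by edgeR, against 0.00611% of all genes, and 0 passed it by DESeq2, against 0.0672%. Nr4a3 alone had an unadjusted p under 0.05, against 5.53% of all genes, with a log2 difference of 1.05 ± 0.40 (adjusted p = 0.902). The difference for Egr2 was -1.33 ± 0.64 (adjusted p = 0.903), and it turned to 0.15 with both DKO libraries of number 1 left out.

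Genes around the members were examined as lists. Their counts stand against the 11.9% of all genes called in mLN Treg cells, 3.43% in mLN Foxp3- cells, and 1.74% and 0.819% in spleen and pLN, most of them higher in DKO. Of the signaling machinery upstream of the members in mLN Treg cells, 2 of 17 proximal TCR genes passed, both lower in DKO, 3 of 24 genes of Ras-MAPK, SRF and CREB passed (2 higher, 1 lower), and 2 of 9 genes of calcineurin and NFAT (1 higher, 1 lower). The adaptor gene Lat was at 477, 476 and 459.5 CPM in WT against 289, 226 and 298 CPM in DKO cells (log2 fold change -0.80 ± 0.17, adjusted p = 0.00692), and Cd247, the TCR zeta chain, fell by 0.85 on the log2 scale (adjusted p = 0.00259). Rasgrp1, which loads Ras after TCR engagement, fell by 0.91 (adjusted p = 0.0102). Rcan1, a calcineurin regulator, rose by 0.95 (adjusted p = 0.0132) and Rcan3 fell by 0.87 (adjusted p = 0.000136).

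Of the inhibitors that MAPK signaling itself induces, 3 of 11 passed and all 3 were higher in DKO mLN Treg cells, although the list's median log2 fold change was -0.11. Spry2 was at 0.0822, 0 and 0 CPM in WT against 19.3, 9.92 and 12.1 CPM in DKO Treg cells (adjusted p = 2.16e-05), and Spred1 rose by 0.96 (adjusted p = 0.0073). In Foxp3- cells 2 of 11 passed, Spry2 and Spred1, and Spry2 was at 0.135 to 0.299 CPM in WT against 1.06 to 2.81 CPM in DKO cells.

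Of the remaining bZIP and EGR family genes, 4 of 14 tested passed and all 4 were higher in DKO mLN Treg cells, with a list median of 0.53. Fosl2, which encodes the AP-1 protein FRA2, was at 9.04, 5.62 and 5.9 CPM in WT against 19.9, 20.3 and 16.9 CPM in DKO cells (log2 fold change 1.47 ± 0.23, adjusted p = 0.00121). Batf, whose protein pairs with JUN proteins, was at 66.2, 72.7 and 67.2 CPM in WT against 158, 123 and 125 CPM in DKO cells (0.97 ± 0.17, adjusted p = 0.00207). These AP-1 relatives thus lay on the other side of 0 from Fos, Fosb and Jun in the same libraries.

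Of 26 further immediate early genes, 7 passed in mLN Treg cells, 3 higher and 4 lower, with a list median of -0.15. Bhlhe40, a basic helix-loop-helix repressor, was at 74.3, 73.3 and 76.8 CPM in WT against 486, 318 and 205 CPM in DKO cells (log2 fold change 2.17 ± 0.39, adjusted p = 0.00225). Klf4 rose by 2.26 (adjusted p = 0.0138). In mLN Foxp3- cells 3 of 26 passed (2 higher, 1 lower), with Bhlhe40 at 15.4, 15.9 and 15.7 CPM in WT against 42, 167 and 122 CPM in DKO cells (adjusted p = 0.0049) and the kinase gene Sik1 down by a log2 fold change of -1.04 (adjusted p = 0.0398).

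In mLN Foxp3- cells 0 genes passed in the proximal TCR, Ras-MAPK and calcineurin lists and 1 of 14 in the bZIP and EGR list. In spleen and pLN 1 of 26 further immediate early genes passed in Treg cells, Myc, at 56.6 and 58.5 CPM in WT against 115 and 93.6 CPM in DKO cells (log2 fold change 0.86 ± 0.17, adjusted p = 0.0274), and 0 of 26 passed in Foxp3- cells. The 5 other lists had 0 genes past the test in either cell type there.

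The genes most like Fos and Nr4a1 were sought by the smaller of the Pearson correlations of log2 CPM over the 12 mLN and the 8 spleen and pLN libraries, among 7480 genes. For Nr4a1 these were Hnrnph1 (r = 0.84 and 0.894), Stat5a (0.825 and 0.928), Rel (0.805 and 0.942), Cfdp1 (0.796 and 0.831) and Casc4 (0.839 and 0.794). For Fos they were Prpf6 (0.799 and 0.829), Rnf20 (0.786 and 0.867), Mbd6 (0.786 and 0.824), Ccdc93 (0.889 and 0.768) and Bms1 (0.733 and 0.808). The libraries share cell type, genotype and number, so these values are a description of these libraries.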

How the data were processed

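The authors sequenced single-end 50 bp stranded TruSeq libraries, aligned them with TopHat2 2.1.1 to mm9, and counted reads over RefSeq genes with featureCounts of Subread 1.4.3-p1. Raw counts and TPM values were deposited in a table per tissue; how the TPM were calculated is not given in the sources used here, and the deposited TPM served only for levels between genes of one table.

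From the deposited counts, genes with at least 1 count in the table were tested with edgeR 4.0.16 (R 4.3.3) quasi-likelihood tests after TMM scaling, with the 4 groups of a table in one fit. All p-values were adjusted by Benjamini-Hochberg over all genes of the table. A gene passed at an adjusted p of 0.05 or less and a fold change of at least 1.5, and an interaction at the adjusted p alone. The tables were never fitted together. DESeq2 1.42.0 was an alternative, beside other scaling, filters, groups fitted, a robust prior, replicate blocks and libraries left out.

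In mLN, Treg and Foxp3- libraries of one genotype with the same number deviated together from their group means (r = 0.138 to 0.544 over 8410 genes, in 6 of 6 pairs). These numbers were taken as pairs in an alternative fit only. The main tests, those of Treg against Foxp3- cells and of the interaction included, did not use them and treated the libraries as independent. Between WT and DKO libraries of one cell type not every pair passed 0.1 (r = 0.099, -0.053 and 0.159 in Treg and 0.234, 0.122 and 0.043 in Foxp3- cells), and the numbers were not used as pairs there.

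The members, lists and comparisons were chosen with earlier results of these data known. Listed genes were named where they passed and averaged at least 10 CPM in the higher group, the 2 with the largest change per list and comparison; Spry2 in Foxp3- cells and Hspa1a were named after their values were seen. The limit of 3 counts covers counting error only. The common biological coefficient of variation was 17.7% in mLN and 21.6% in spleen and pLN.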

Additional observations from a re-analysis of the deposited data

How the results depend on the processing

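Of the 147 counts of members called under an alternative, 111 stayed within 1.5 times the main count and 36 moved; of the 671 values for the printed log2 fold changes, 596 kept direction and call, 21 lost a call, 46 gained one and 8 reversed. Over all 100 member fold changes 115 of 1470 values reversed. The 32 counts over lists moved in 130 of 432 values. The shares of all genes called moved too. For DKO against WT Foxp3- cells of mLN the share was 3.43% in the main fit and 0.341% to 8.69% with 1 library left out. The 3 alternatives that leave out a whole replicate number were chosen after seeing the data. The cause was not tested, except that fits with fewer groups or libraries hold fewer samples.

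In mLN, the count for DKO against WT Treg cells went from 1 to 2 with the 2 groups alone, 3 with a replicate block (Nr4a2, Fos and Fosb, the latter at adjusted p = 0.00557 and 0.000484) and 2 without number 3. In Foxp3- cells it went from 0 to 1 by DESeq2, 2 with the replicate block (Fos and Fosb, adjusted p = 0.0369 and 0.0101), 1 without number 1 and 0 to 2 with 1 library left out. For Treg against Foxp3- cells in WT it went from 1 to 3 with the 2 groups alone, 0 with the robust prior, 0 without number 3 and 0 with any library left out (without number 1 it stayed at 1, with Egr2 in place of Junb), and in DKO from 3 to 0 with the 2 groups alone and 0 without number 1. The replicate block within genotype, which follows the pairs, changed no count or printed call there. Whether the numbers pair WT with DKO libraries was not shown: between genotypes each Foxp3- library correlated best with its own number and the Treg library with number 2 did not, while WT Treg and DKO Foxp3- libraries of one number gave r = 0.105 to 0.17 and DKO Treg and WT Foxp3- libraries r = -0.153 to 0.074. In spleen and pLN 2 numbers are too few to show pairing.

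In spleen and pLN, where leaving out number 1 leaves 1 sample per DKO group that is assumed to vary like the others, the count for Treg cells went from 0 to 1 by DESeq2, 2 with the 2 groups alone, 1 with the replicate block, 2 without DKO number 1 and 0 to 5 with 1 library left out. In Foxp3- cells it went from 0 to 2 by DESeq2, 2 without DKO number 1 and 0 to 6 with 1 library left out. Treg against Foxp3- cells went from 0 to 3 in WT with the 2 groups alone and 3 without DKO number 1, and in DKO from 1 to 0 under filterByExpr, 6 without DKO number 1 and 0 to 4 with 1 library left out. The interaction went from 0 to 5 without DKO number 1 and 0 to 3 with 1 library left out. With 1 library left out, and then without DKO number 1, the log2 fold changes reversed for Jun in Treg cells (-0.20 to 1.14, and -0.19), for Nr4a1 (-0.28 to 1.13, and -0.28) and Egr1 (-0.020 to 1.63, and -0.013) in Foxp3- cells and for the Egr2 interaction (-2.04 to 0.12, and 0.15). Another prior count left the 5 genes most like Fos and Nr4a1 in place. By CPM, which ignores gene length, Fos in place of Junb led in WT mLN Treg cells.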

Other observations

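Genes linked to restrained T cell responses, several of them reported targets of NFAT without AP-1 or of NR4A and EGR factors, were fixed as a further list of 13. In mLN 4 of 13 passed in DKO Treg cells, against 11.9% of all genes (1426 of 2001 higher), and 4 of 13 in DKO Foxp3- cells, against 3.43% (524 of 575 higher), all higher, with list medians of 0.74 and 0.59 on the log2 scale. Rnf128, which encodes the E3 ligase GRAIL, was at 6.57, 5.13 and 5.31 CPM in WT against 46.7, 38.8 and 39.4 CPM in DKO Treg cells (log2 fold change 2.87 ± 0.50, adjusted p = 0.00198). In mLN Foxp3- cells it was at 3.49, 2.77 and 2.69 CPM in WT against 11, 80.6 and 40.5 CPM in DKO libraries. Pdcd1, the gene of the inhibitory receptor PD-1, rose by 1.63 in mLN Treg cells (adjusted p = 0.00188), and Lag3 rose by 2.58 in mLN Foxp3- cells (adjusted p = 0.0194), at 50.6, 73.3 and 49.3 CPM in WT against 97.9, 642 and 300.3 CPM in DKO libraries. Lag3 and Rnf128 were thus highest in the DKO Foxp3- library with number 2, which correlated least with its group and had the highest Treg and CD8 and NK marker sums (348 and 146 CPM); the part of that library's makeup was not tested. In spleen and pLN 1 of 13 passed in each cell type, against 1.74% and 0.819% of all genes, Rnf128 both times, at 9.38 and 8.63 CPM in WT against 26.3 and 26.6 CPM in DKO Treg cells (adjusted p = 0.0432) and at 11.6 and 6.99 CPM in WT against 62.3 and 27.6 CPM in DKO Foxp3- cells (adjusted p = 0.0159).

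Of 11 heat shock genes, 1 passed in mLN Treg cells, Hspb1, and 0 in mLN Foxp3- cells, while 4 passed in spleen and pLN Treg cells (1 higher, 3 lower) and 1 in Foxp3- cells, against the same shares. Hspa1a and Hspa1b were both lower in DKO Treg cells of spleen and pLN (adjusted p = 0.031 and 0.0478); these neighbouring genes are nearly identical in sequence, so their separate values are uncertain. The summed level of the list was 5740 to 6620 CPM in WT against 6280 to 6890 CPM in DKO mLN Treg cells.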
